A study of Mus musculus with 9 samples.

Results

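The SOX genes encode transcription factors that bind DNA through an HMG box, a domain related to that of Sry. The 10 members described here are Sox2, Sox4, Sox5, Sox6, Sox8, Sox9, Sox10, Sox11, Sox17 and Sox18. They were looked up in the deposited table by gene symbol, and every probe set annotated with one of these symbols alone was kept, which gave 29 probe sets. The table held 14440 genes with a single symbol. The family was selected on its intensities in tumours and muscles of these same arrays, so the differences given below between tumour and muscle for its members are a description and are supported by no test.

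The study measured RNA of tumours from a mouse model of synovial sarcoma, a cancer of soft tissue, beside RNA of normal skeletal muscle, with an Affymetrix expression array for every sample. The 5 tumours were from mice labelled MYF-5 CRE/SSM2, and their labels are CC23, both CC17-B and CC17-A, and then SSM5 and SSM4. In such mice Cre recombinase is made from the Myf5 locus, which is active in muscle precursors, and it switches on a fusion of SYT with SSX, the oncogene of human synovial sarcoma. The 4 muscles were titled wild type and were labelled Hind limb, Intercostal, forelimb and Hind limb 2. Neither Cre nor the fusion allele is named for the muscles, so genotype and tissue change together and cannot be told apart. No age or sex was given in the sources used here. Whether every array stands for its own animal is not given, and CC17-A and CC17-B may share a mouse, so p-values measure only the spread between these samples, which may be partly technical.

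SOX proteins recognise a short DNA core and usually act with a partner factor bound next to them. Sox2 belongs to the B1 group and keeps embryonic stem cells and neural progenitors undifferentiated. Sox4 and Sox11 belong to the C group, which is active in embryonic mesenchyme and in young neurons. Sox5 and Sox6 belong to the D group, which lacks a transactivation domain and acts in cartilage, while Sox6 also represses slow fibre genes in mouse muscle. Sox8, Sox9 and Sox10 form the E group, with Sox9 needed for cartilage and Sox10 for Schwann cells and melanocytes. Sox17 and Sox18 belong to the F group, which acts in endothelium.

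The promoters of the members whose level was much higher in tumours than in muscle are printed to show how unlike each other the sequences next to these start sites are. Of the 10 members, 6 had an entry in the RefSeq promoter table (Sox2, Sox4, Sox5, Sox6, Sox8 and Sox11), and the windows shown for Sox2, Sox4 and Sox11 are the 250 bases upstream of the annotated start in build GRCm38.p6. They lie at chr3:34649745-34649994 on the plus strand for Sox2, chr13:28953700-28953949 on the minus strand for Sox4 and chr12:27342719-27342968 on the minus strand for Sox11, and each is written 5′ to 3′ along the strand of the gene. Capitals mark the CCAAT box (CCAAT, or ATTGG on the opposite strand) and the GC box (GGGCGG, or CCGCCC on the opposite strand), which do not overlap each other here.
Sox2: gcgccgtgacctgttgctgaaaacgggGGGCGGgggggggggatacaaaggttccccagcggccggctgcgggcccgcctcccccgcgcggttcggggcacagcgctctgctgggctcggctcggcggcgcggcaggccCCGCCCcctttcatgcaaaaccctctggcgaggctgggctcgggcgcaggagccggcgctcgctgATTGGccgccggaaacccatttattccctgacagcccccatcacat
Sox4: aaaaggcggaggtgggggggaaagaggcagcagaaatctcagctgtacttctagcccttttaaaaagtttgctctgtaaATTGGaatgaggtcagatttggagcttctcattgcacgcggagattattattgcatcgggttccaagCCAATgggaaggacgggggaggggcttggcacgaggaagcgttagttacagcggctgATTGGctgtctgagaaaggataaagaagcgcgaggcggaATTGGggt
Sox11: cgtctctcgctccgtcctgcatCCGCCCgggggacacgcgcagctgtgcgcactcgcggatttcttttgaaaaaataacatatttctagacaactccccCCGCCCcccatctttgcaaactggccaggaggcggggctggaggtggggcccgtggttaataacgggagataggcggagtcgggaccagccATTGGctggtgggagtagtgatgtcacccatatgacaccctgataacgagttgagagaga
The Sox2 window was the richest of these in G and C, at 72.0%, with 27 CpG dinucleotides, and held 1 CCAAT box and 2 GC boxes. The Sox4 window was 50.8% G and C with 11 CpG, and held 4 CCAAT boxes and 0 GC boxes. The Sox11 window was 58.0% G and C with 17 CpG, and held 1 CCAAT box and 2 GC boxes. Across 32851 mouse promoter windows of the same length the median was 52.4% G and C and 6 CpG, so all 3 windows held more CpG than the median. A CCAAT box was found on either strand in 33.8% of those windows and a GC box in 32.7%. The SOX core ACAAT, searched on both strands as well, occurred 0 times in these 3 windows and in 27.7% of all windows, and TATAAA occurred 0 times in them and in 12.4% of all. These letter matches describe the windows and name no bound site.

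Values are scaled intensities, the authors' probe set signals after each array was brought to a common 2% trimmed mean. The floor of an array, the 40th percentile of its values, ran from 96.5 to 137, and a value under it is called below the floor. The ratio of the 3-prime to the 5-prime Actb control signal, which rises as RNA is degraded or incompletely copied, was 12.7 in CC23 and 4.54 in SSM5, against 1.99 to 2.90 in the other tumours and 1.62 to 1.93 in the muscles. Muscle identity was checked with 10 skeletal muscle genes, of which 9 were in the table. Their summed intensity ran from 480 in SSM5 to 130350 in SSM4 over the tumours and from 451773 to 616491 over the muscles. Ss18, the mouse counterpart of SYT, had a signal of 4015 ± 831 in tumours (SD, n = 5) and 1748 ± 159 in muscles (SD, n = 4) by its brightest probe set, 1419360_a_at. Its other probe sets were dimmer, and their tumours and muscles overlapped. Means were 376 ± 88.1 in tumours and 148 ± 127 in muscles for 1419361_at, and 325 ± 269 and 176 ± 71.0 for 1436257_at. Whether the Ss18 probes read the fusion transcript was not tested. In bulk tissue, fewer cells of a type and less RNA per cell cannot be told apart.

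A gene or probe set was tested where 4 or more arrays had it at or above their floor, and called at an adjusted p under 0.05 with limma, Benjamini-Hochberg adjusted over all genes or all probe sets tested. Of the 10 SOX genes, each read from the probe set of highest mean level, 8 were tested. Sox2, Sox4 and Sox11 were called higher in tumours, Sox6, Sox17 and Sox18 lower, and Sox9 and Sox10 were not called, while Sox5 and Sox8 did not reach the floor on 4 arrays. Among the 10646 genes tested, 48.1% were called, 30.1% higher and 18.0% lower in tumours, so calls were common in this comparison. Of the 29 SOX probe sets, 22 were tested, with 10 called higher and 5 lower, against backgrounds of 25.7% and 16.5% of the 17433 probe sets tested (42.2% in either direction). The 10 were 6 of Sox11, 3 of Sox4 and 1 of Sox2, and the 5 were 3 of Sox6 and 1 each of Sox17 and Sox18. Probe sets of 1 gene are not replicates, so counts of SOX probe sets, here and below, are not counts of independent members. The 2 groups of arrays did not overlap for 12 of the 22 SOX probe sets tested and for 0 of the 7 others, with all tumours above all muscles for 7 and below for 5, against a background of 36.2% of the probe sets tested, 21.7% above and 14.5% below. For genes that background was 40.5%, 25.3% above and 15.2% below. Sox2 and 5 of the 6 Sox11 probe sets were at or below the floor in every muscle and passed the filter only through the tumours, so they had to differ. The median log2 fold change, tumour minus muscle, was 0.52 over the 8 SOX genes tested and 0.23 over all genes tested. The share of calls that were higher in tumours was 62.6% as scaled, 51.9% after median centring of the arrays and 77.5% after centring on genes of the ribosome and the proteasome, and the directions of the called SOX genes held under both. The last centring moved the median of all genes to 0.56.

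**Figure D1:**
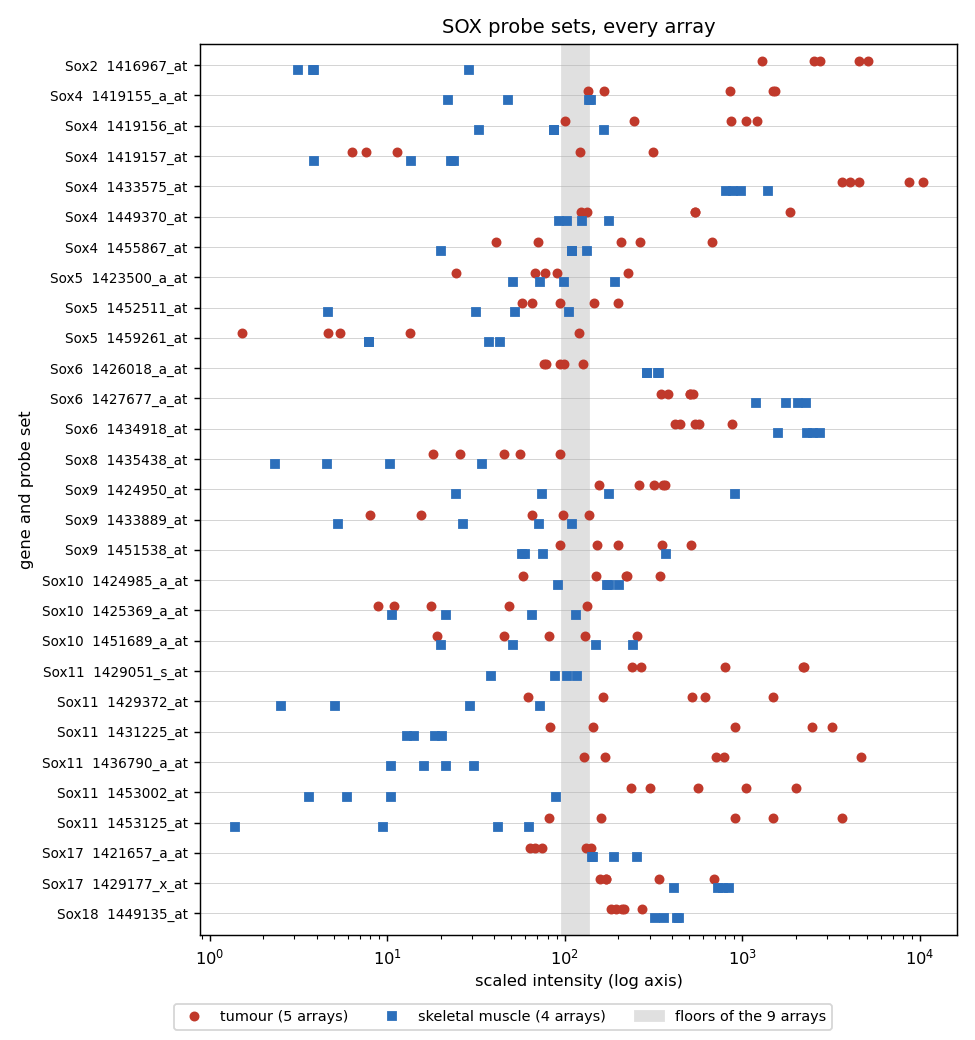
Scaled intensity (log axis) of every SOX probe set, 1 row each, with 5 tumour arrays and 4 muscle arrays as separate points and the range of array floors marked. Sox2 in tumours lies between 1290 and 5097, far to the right of its muscle points, whereas the Sox5 and Sox8 points of both groups lie mostly under the floor.

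Sox2 was the member that differed most, being high in every tumour and below the floor in every muscle. The scaled intensity of its probe set 1416967_at was 5097 in CC23, 4521 in CC17-B, 2742 in CC17-A, 2530 in SSM5 and 1290 in SSM4, against 3.14 in Hind limb, 3.80 in Intercostal, 28.8 in forelimb and 3.87 in Hind limb 2. The groups lay far apart, CC23 and CC17-B were the highest tumours and SSM4 the lowest. The tumours averaged 3236 ± 1553 (SD, n = 5) and the muscles 9.90 ± 12.6 (SD, n = 4), and since the muscle values were all below the floor the tumours were at least 24.6-fold higher. The fitted log2 fold change was 6.92 with an SE of 0.42 and depended on the constant added before taking logs, reaching 8.63 with a pseudocount of 1 and 5.35 with 64. CC23, the highest tumour, was also the array with the Actb ratio of 12.7, whose part in the result was not tested, and the log2 fold change without CC23 and SSM5 was 6.72.

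Genes that work with SOX2 or mark stem and progenitor cells were taken from a list of 20 genes, of which 18 were in the table and 11 were tested. Of these, 4 were called higher by limma, 0 lower (0 at an unadjusted p under 0.05 too) and 7 were not called, with a median log2 fold change of 0.53. Over all genes tested, 30.1% were called higher and 18.0% lower. The count of the list called lower was 2 with median centring of the arrays and at most 1 with any 1 array left out. Pax6, an eye and neural progenitor factor that acts with SOX2 in lens, had intensities of 383 in CC23, 843 in CC17-B, 1591 in CC17-A, 266 in SSM5 and 185 in SSM4, against 87.6 in Hind limb, 12.3 in Intercostal, 19.9 in forelimb and 15.2 in Hind limb 2. Its log2 fold change was 3.55 (adjusted p = 0.000767). Sall1, a zinc finger factor of kidney progenitors, differed by 3.32 (adjusted p = 0.00305), Msi1, an RNA-binding protein of neural progenitors, by 2.71 (adjusted p = 0.00248) and Pou3f1, a POU factor of neural and Schwann lineages, by 2.54 (adjusted p = 0.0017), all on the log2 scale. These 4 called genes were below the floor in every muscle and passed the filter only through the tumours, so they too had to differ, and their p-values lend no support. With the probe sets of a gene averaged, 1 gene of the list was called higher. Pou5f1 and Nanog, the partners of Sox2 in embryonic stem cells, were below the floor on all 9 arrays. In all, 9 of the 18 genes were below the floor in every muscle, and the sum of the list ran from 3556 to 10866 in tumours and from 2752 to 3610 in muscles. Klf4, which was not called, made up a large part of these sums except in CC17-A. It had 5661 in CC23, 4101 in CC17-B, 697 in CC17-A, 2231 in SSM5 and 1834 in SSM4, against 1290 to 1403 in the muscles.

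The SOXC gene Sox4 was strongly detected in all samples and higher in tumours. Its brightest probe set, 1433575_at, had intensities of 4012 in CC23, 8624 in CC17-B, 10391 in CC17-A, 4549 in SSM5 and 3612 in SSM4, against 879 in Hind limb, 1401 in Intercostal, 809 in forelimb and 977 in Hind limb 2. Every tumour was above every muscle, with the CC17 pair highest. Means were 6238 ± 3068 in tumours (SD, n = 5) and 1016 ± 265 in muscles (SD, n = 4), a log2 fold change of 2.50 (SE 0.33) that was called under all 23 alternative settings.

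The other Sox4 probe sets were dimmer, and their groups overlapped. Probe set 1419155_a_at had intensities of 1528 in CC23, 855 in CC17-B, 1491 in CC17-A, 166 in SSM5 and 134 in SSM4, against 22.0 in Hind limb, 137 in Intercostal, 140 in forelimb and 48.0 in Hind limb 2. Probe set 1419156_at had 1212, 1048, 866, 244 and 100 in the tumours in that order, against 87.3, 87.0, 166 and 32.8 in the muscles. Both were called higher, with log2 fold changes of 2.68 and 2.37, and in both the 3 CC tumours stood above every muscle while the SSM tumours lay in or near the range of the muscles. The first call was lost without the muscle Hind limb and the second without Hind limb 2. Probe set 1449370_at (log2 fold change 1.60) reached 1848 in CC17-A and lay between 123 and 544 in the other tumours, against 92.4 to 177 in the muscles, and its tumour mean without CC17-A was 335. Probe set 1455867_at (0.95) reached 675 in CC23 and lay between 41.0 and 266 in the other tumours, against 20.1 to 132 in the muscles, and its tumour mean without CC23 was 146. Neither was called. Probe set 1419157_at was not tested, being above its floor only in CC17-B and CC17-A, at 122 and 315.

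Sox11, the other SOXC gene measured, was near or below the floor in every muscle and varied widely among tumours. Its 6 probe sets were all called higher, with log2 fold changes from 3.01 to 4.33, and for 5 of the 6 all tumours were above all muscles. The brightest, 1431225_at, had intensities of 913 in CC23, 2473 in CC17-B, 3206 in CC17-A, 82.2 in SSM5 and 144 in SSM4, against 12.9 in Hind limb, 20.2 in Intercostal, 18.7 in forelimb and 14.1 in Hind limb 2. The CC tumours stood well above both SSM tumours, and SSM5 was itself below its floor. Means were 1364 ± 1411 in tumours (SD, n = 5) and 16.5 ± 3.50 in muscles (SD, n = 4), at least 5.49-fold higher against the floor, and the fitted log2 fold change was 4.33 (SE 0.94). Without CC17-A the tumour mean of this probe set was 903.

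In the other Sox11 probe sets, too, the CC tumours were above both SSM tumours. Probe set 1453125_at had 1491 in CC23, 906 in CC17-B, 3620 in CC17-A, 81.6 in SSM5 and 160 in SSM4, against 41.9 in Hind limb, 62.9 in Intercostal, 1.38 in forelimb and 9.47 in Hind limb 2. Probe set 1436790_a_at had 709, 782, 4671, 128 and 169 in the tumours in that order, against 16.1, 21.4, 30.8 and 10.5 in the muscles. CC17-A was the highest tumour in both, and their tumour means without it were 660 and 447. Probe set 1453002_at had 1049, 565, 1990, 236 and 301 in the tumours, against 10.5, 5.92, 3.62 and 89.1 in the muscles. Probe set 1429051_s_at had 2227, 802, 2187, 267 and 240 in the tumours, against 103, 38.4, 116 and 87.5 in the muscles. In both of these every tumour was above every muscle. Probe set 1429372_at, where the groups overlapped, had 619, 517, 1484, 61.9 and 165 in the tumours, against 72.1, 5.10, 29.2 and 2.51 in the muscles. Without CC17-A the tumour means of 1453002_at and 1429372_at were 538 and 341. Within a probe set the highest tumour was 8.44 to 44.4 times the lowest, and the lowest was always SSM5 or SSM4. Over the 6 probe sets the 3 CC tumours lay between 517 and 4671 and the 2 SSM tumours between 61.9 and 301, a difference that was not tested. Without CC23 and SSM5, the tumours with raised Actb ratios, the log2 fold change of Sox11 was 5.07.

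**Figure D2:**
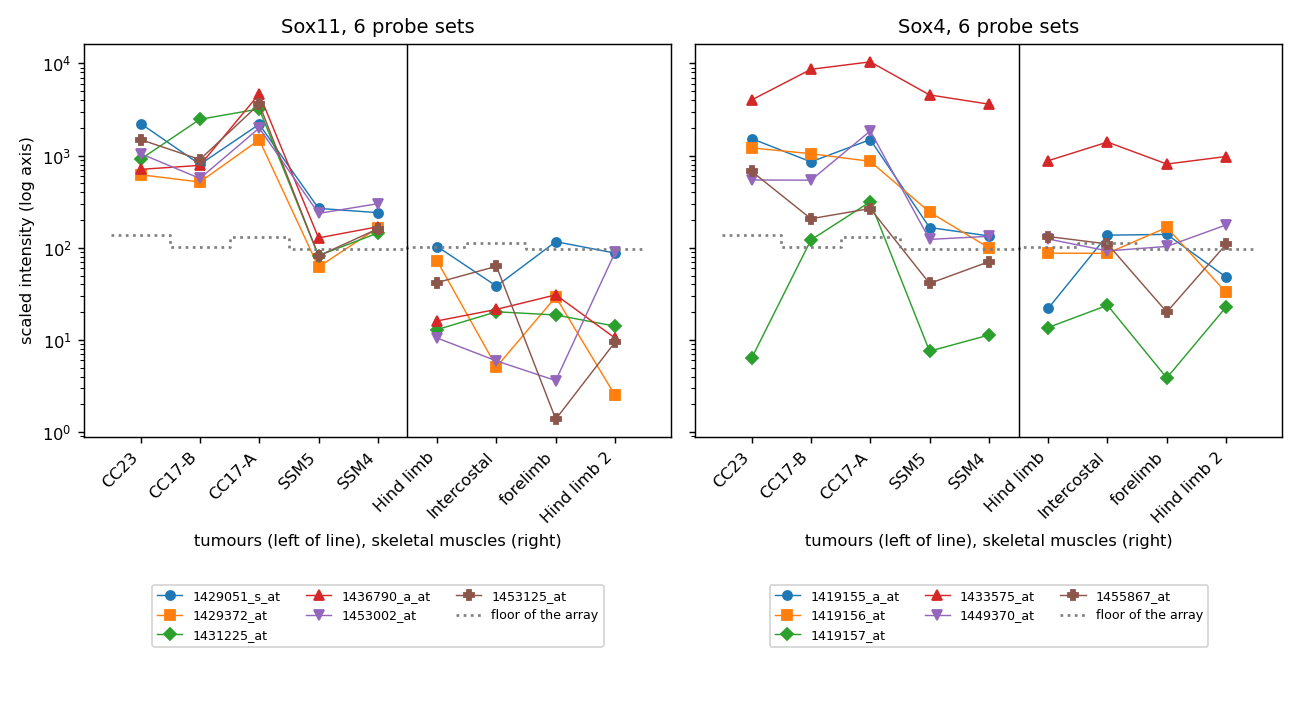
Scaled intensity (log axis) of each probe set of Sox11 (left panel) and Sox4 (right panel) on the 5 tumour arrays and then the 4 muscle arrays, with the floor of each array dotted. All Sox11 lines drop between CC17-A and SSM5, and the brightest Sox4 line stays between 3612 and 10391 in the tumours, above all its muscle points.

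Of the 22 SOX probe sets tested, the CC tumours lay wholly above the SSM tumours for 11, namely all 6 of Sox11, 4 of Sox4 and that of Sox2, and wholly below for 2, one each of Sox6 and Sox9. Over all probe sets tested, 21.2% lay wholly above and 21.5% wholly below. No test was run between the CC and the SSM tumours.

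Target genes of SOXC factors in neurons were taken from a list of 6 genes, of which 5 were in the table and 3 were tested, all 3 called higher with a median log2 fold change of 2.16. Tead2, a TEA domain factor reported as a SOX11 and SOX4 target in mouse embryos, had intensities of 611 in CC23, 683 in CC17-B, 996 in CC17-A, 522 in SSM5 and 385 in SSM4, against 124 in Hind limb, 130 in Intercostal, 190 in forelimb and 17.2 in Hind limb 2. The groups did not overlap, and it differed by 2.52 on the log2 scale (adjusted p = 0.0015). Stmn2, a microtubule regulator of neurons, differed by 2.16 on the log2 scale (adjusted p = 0.000921). Map2, a microtubule protein of dendrites, differed by 1.99 (adjusted p = 0.00696), but was not called when the mean of its probe sets was used, at 0.66 (adjusted p = 0.126). Tubb3, a neuronal tubulin, was not tested, with 1350 in CC17-A and 168 in CC23 against 8.39 to 67.3 in the muscles, and the remaining 3 tumours below the floor. The sum of the list ran from 2015 to 9164 in tumours, highest in CC17-A, and from 474 to 835 in muscles.

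Sox6 of the D group was lower in tumours by all 3 of its probe sets, with no overlap between groups in any of them. Probe set 1434918_at had intensities of 415 in CC23, 572 in CC17-B, 868 in CC17-A, 444 in SSM5 and 540 in SSM4, against 2723 in Hind limb, 1580 in Intercostal, 2310 in forelimb and 2492 in Hind limb 2. Intercostal was the lowest muscle and still above every tumour. Means were 568 ± 180 in tumours (SD, n = 5) and 2276 ± 494 in muscles (SD, n = 4), a log2 fold change of -1.99 (SE 0.26) that stayed between -2.21 and -1.66 and called under all 23 alternatives. Probe set 1427677_a_at had 349, 383, 526, 504 and 508 in the tumours in that order, against 2277, 1190, 1760 and 2059 in the muscles, a log2 fold change of -1.94. Probe set 1426018_a_at was dimmer, with 76.4 to 127 in the tumours, of which 3 were below the floor, against 288 to 340 in the muscles, a log2 fold change of -1.58.

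Muscle genes moved the same way as Sox6. Of the 10 skeletal muscle genes, 9 were tested and 8 were called lower, with a median log2 fold change of -5.61. The sums of this list were 114770 in CC23, 39202 in CC17-B, 5927 in CC17-A, 480 in SSM5 and 130350 in SSM4. The Sox6 values of 1434918_at in these tumours were 415, 572, 868, 444 and 540 in the same order. The part of muscle content in the Sox6 difference was not tested. Slow fibre genes, which SOX6 represses in mouse muscle, were taken from a list of 10 genes, of which 8 were in the table and tested. Of these, 7 were called lower and 1 higher, with a median log2 fold change of -3.88. Myl2, a slow and cardiac myosin light chain, differed by -5.86 (adjusted p = 0.000851), Tnnc1, slow troponin C, by -4.57 (adjusted p = 0.000378), Tnnt1, slow troponin T, by -4.08 (adjusted p = 0.00487) and Myoz2, a Z-disc protein of slow fibres, by -3.99 (adjusted p = 0.00227). Myh7, the slow myosin heavy chain, was not analysed here.

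Sox5, the other D group gene measured, stayed near or below the floor and was not tested. Probe set 1423500_a_at was highest in CC23 at 226 and Intercostal at 192, and lay between 24.3 and 90.5 in the other tumours and between 51.2 and 98.5 in the other muscles. Probe set 1452511_at had 57.1 to 199 in tumours and 4.65 to 105 in muscles. Probe set 1459261_at had 1.53 to 121 in tumours and 7.87 to 43.0 in muscles. The groups overlapped in all 3.

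Sox9, the E group gene needed for cartilage, was not called, and its level in muscle was set by 1 array. Probe set 1424950_at had intensities of 315 in CC23, 156 in CC17-B, 260 in CC17-A, 357 in SSM5 and 366 in SSM4, against 177 in Hind limb, 907 in Intercostal, 74.5 in forelimb and 24.4 in Hind limb 2. Intercostal was above every tumour, Hind limb was above CC17-B alone, and the other 2 muscles were below every tumour. Means were 291 ± 86.3 in tumours (SD, n = 5) and 296 ± 412 in muscles (SD, n = 4), a log2 fold change of 0.89 (SE 0.72). Without Intercostal the muscle mean was 92.0 ± 77.8 (SD, n = 3) and the log2 fold change 1.73, which was then called higher. Probe set 1451538_at had 514, 94.0, 351, 198 and 151 in the tumours in the same order, against 57.6, 369, 59.4 and 75.1 in the muscles, a log2 fold change of 1.01. Without Intercostal its log2 fold change was 1.58 and was then called too. Probe set 1433889_at was not tested, with 7.98 to 137 in tumours and 5.31 to 110 in muscles.

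Cartilage genes, many of them SOX9 targets, stood out in Intercostal as well. Of 14 genes, 8 were tested, with 1 called higher and 1 lower and a median log2 fold change of -1.34. The count called lower depended on the scaling, being 4 with values as deposited, 4 with median centring and 3 with quantile normalization. It was 3 without Hind limb or without Hind limb 2, 2 without SSM4 and 0 without forelimb. Their summed intensity ran from 5264 to 10899 in tumours and from 1355 to 36609 in muscles, with 36609 in Intercostal and 5488 in forelimb. Col2a1, the main cartilage collagen and a SOX9 target, had 5817 in CC23, 9869 in CC17-B, 4083 in CC17-A, 3752 in SSM5 and 3554 in SSM4, against 30.0 in Hind limb, 3123 in Intercostal, 735 in forelimb and 162 in Hind limb 2. Every tumour was above every muscle, and the log2 difference was 3.75 (adjusted p = 0.00768). Without Intercostal the muscle mean of Col2a1 was 309 ± 375 (SD, n = 3), against 1012 with it. Other cartilage genes did not have this pattern. Col9a1, a collagen of the cartilage fibril surface, was called lower at -2.12 (adjusted p = 0.0177), with 2020 in Intercostal, and was not called when its probe sets were averaged or, at -1.97, without forelimb. Without Intercostal it was -1.47 and still called, and without Intercostal and forelimb together -0.91 and not called. Acan, the cartilage proteoglycan aggrecan, lay between 75.4 and 133 in tumours, against 107, 3410, 339 and 187 in the muscles in label order. Matn3, Cnmd and Col10a1 were below the floor in every tumour, and Col10a1, the collagen of hypertrophic cartilage, reached 6131 in Intercostal. The part of cartilage tissue in the Sox9 signal of Intercostal was not tested.

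**Figure D3:**
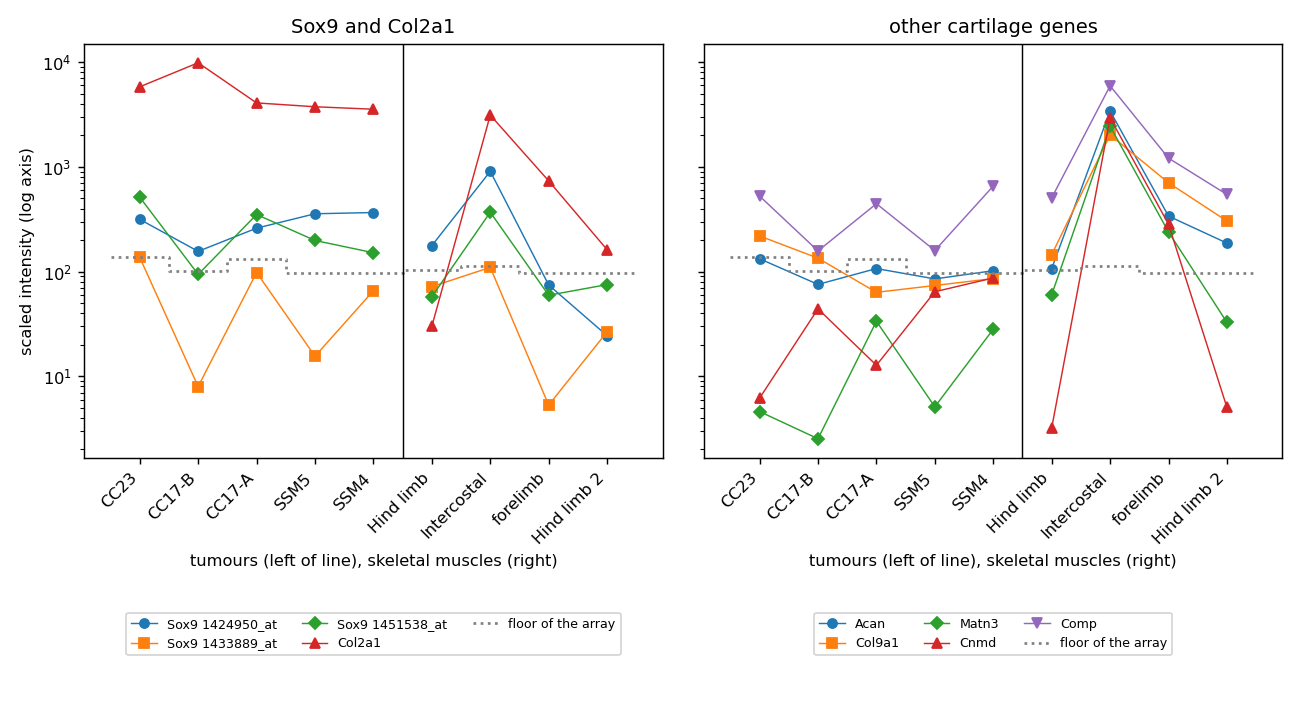
Scaled intensity (log axis) of the Sox9 probe sets and of cartilage genes on the 5 tumour arrays and then the 4 muscle arrays. In the tumours Col2a1 is at least 3554 and Acan at most 133, while in the muscles Sox9 peaks in Intercostal at 907 together with Acan at 3410.

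Sox10 and Sox8, the remaining E group genes, did not separate the groups. Sox10 probe set 1424985_a_at had intensities of 150 in CC23, 58.4 in CC17-B, 343 in CC17-A, 220 in SSM5 and 225 in SSM4, against 91.6 in Hind limb, 172 in Intercostal, 201 in forelimb and 176 in Hind limb 2, a log2 fold change of 0.16 (SE 0.44) whose sign changed with the scaling. CC17-A was highest and CC17-B lowest, with the muscles between them. Probe set 1451689_a_at, with a log2 fold change of -0.06, reached 256 in CC17-A among the tumours and 242 in Hind limb among the muscles, and 1425369_a_at, not tested, from 8.90 to 133 in tumours and from 10.7 to 115 in muscles. Sox8 was below the floor on every array, at 18.0 to 94.1 in tumours and 2.34 to 34.1 in muscles, so no difference was detectable at this signal.

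Schwann cell and melanocyte genes, the usual setting of Sox10, were mixed. Of 12 Schwann cell genes, 9 were in the table and 7 were tested, with 1 called higher, 2 lower and a median log2 fold change of 0.69, and their sum ran from 6146 to 12150 in tumours and from 5249 to 7795 in muscles. After centring on genes of the ribosome and the proteasome, 3 were called higher and 0 lower. Mbp, myelin basic protein, was lower at -3.08 (adjusted p = 0.0294) and had at most 91.6 in the CC tumours, with 1804 in SSM5 and 773 in SSM4, against 1005 to 2595 in the muscles. S100b, a calcium-binding protein of Schwann cells, was lower at -1.35 (adjusted p = 0.0478), and Cnp, a myelin enzyme, higher at 1.09 (adjusted p = 0.0102), though not called with its probe sets averaged, at 0.63. The call of Mbp was lost without any one of CC17-B, CC17-A, Hind limb, Intercostal and Hind limb 2 (-3.19 to -2.78), and that of S100b without any one array other than SSM5 or Hind limb 2 (-1.54 to -0.74). Of 6 melanocyte genes, 3 were tested, and Mitf, the melanocyte factor that Sox10 activates and that other cells also express, was called lower at -1.01 (adjusted p = 0.016), a call lost without forelimb or Hind limb 2, at -0.90 and -0.91, and after the same centring, at -0.68. The melanocyte sum ran from 886 to 1216 in tumours and from 1264 to 1957 in muscles.

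The endothelial F group genes were lower in tumours by smaller amounts. Sox18 probe set 1449135_at had intensities of 195 in CC23, 271 in CC17-B, 209 in CC17-A, 214 in SSM5 and 182 in SSM4, against 322 in Hind limb, 428 in Intercostal, 440 in forelimb and 363 in Hind limb 2. Every tumour was below every muscle. Means were 214 ± 34.1 in tumours (SD, n = 5) and 388 ± 55.3 in muscles (SD, n = 4), a log2 fold change of -0.81 (SE 0.22). The call was lost after centring on genes of the ribosome and the proteasome, at -0.49, and without Intercostal and forelimb together, at -0.65.

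Sox17 overlapped more. Probe set 1429177_x_at, of a class whose probes can match further transcripts, had intensities of 339 in CC23, 692 in CC17-B, 170 in CC17-A, 171 in SSM5 and 157 in SSM4, against 727 in Hind limb, 412 in Intercostal, 840 in forelimb and 779 in Hind limb 2. CC17-B reached into the range of the muscles, and Intercostal was the lowest muscle. Means were 306 ± 229 in tumours (SD, n = 5) and 689 ± 190 in muscles (SD, n = 4), a log2 fold change of -1.32 (SE 0.42) that was called lower, a call lost without any one of CC17-A, Hind limb, forelimb and Hind limb 2, at -1.28 to -1.18. With adjustment over probe sets it was also lost without SSM5 or SSM4, at -1.19 and -1.16. The gene's call was lost too without CC23 and SSM5 together, at -1.27, and without Intercostal and forelimb together, at -1.49. Probe set 1421657_a_at had 67.8, 140, 132, 63.4 and 74.3 in the tumours in that order, against 144, 142, 253 and 188 in the muscles. Its groups just missed each other, and its log2 fold change of -0.85 was not called.

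Endothelial marker genes moved with the F group genes. Of 18 genes, 16 were in the table and 15 tested, with 8 called lower, 1 higher and 6 not called, a median log2 fold change of -0.83, and sums of 3780 to 6127 in tumours and 7292 to 9724 in muscles, without overlap. Ptprb, an endothelial phosphatase, differed by -1.57 (adjusted p = 0.0347), Tek, the angiopoietin receptor, by -1.42 (adjusted p = 0.00607), Vwf, von Willebrand factor, by -1.06 (adjusted p = 0.014) and Esam, an endothelial adhesion molecule, by -1.04 (adjusted p = 0.0104). The call of Ptprb was lost without any one of CC17-A, SSM5, SSM4, Hind limb, forelimb and Hind limb 2 (-1.59 to -1.19). That of Vwf was lost without Hind limb (-0.89) and without CC23 and SSM5 together (-0.88). With probe sets averaged Ptprb was at -0.84 and not called. Pecam1, an adhesion molecule of all endothelium, had -1.39 and was not called (adjusted p = 0.059), but was called lower with median centring at -1.56 (adjusted p = 0.0434), with quantile normalization at -1.66 (adjusted p = 0.0358) and with a pseudocount of 64 at -1.11 (adjusted p = 0.0399). The count of endothelial genes called lower was 5 without Hind limb, without forelimb, or without Intercostal and forelimb together. The part of endothelial content in the Sox17 and Sox18 values was not tested.

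**Figure D4:**
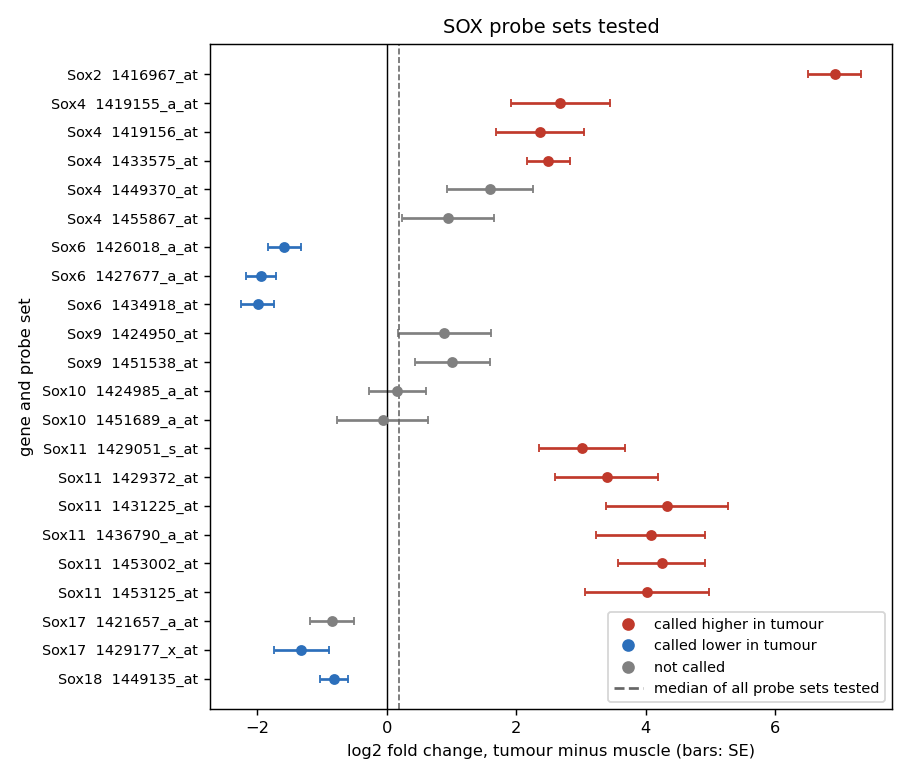
Log2 fold change, tumour minus muscle, of the 22 SOX probe sets tested, with bars of 1 SE, coloured by call, and the median of all probe sets tested as a dashed line at 0.18. All 6 Sox11 points lie at 3.01 or higher, all 3 Sox6 points at -1.58 or lower, and the 2 Sox10 points at 0.16 and -0.06.

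Most of the other SOX genes were too dim to be tested. Of 9 other SOX genes in the table, 4 were tested, with 0 called higher and 1 lower, and a median log2 fold change of 0.16. Among all genes tested 30.1% were called higher and 18.0% lower, and 4 genes are too few to compare with these shares. At an unadjusted p under 0.05 in limma the counts were the same, 0 higher and 1 lower. Sox7, the third F group gene, had 143 in CC23, 216 in CC17-B, 159 in CC17-A, 35.3 in SSM5 and 100 in SSM4, against 385 in Hind limb, 355 in Intercostal, 352 in forelimb and 452 in Hind limb 2. All its tumours were below all its muscles, a log2 difference of -1.61 (adjusted p = 0.00633), the same direction as Sox17 and Sox18. Sox12, the third SOXC gene, was not tested, with 67.5 to 182 in tumours and 4.65 to 29.5 in muscles by probe set 1439754_at. Every tumour was above every muscle, but all muscles and 2 tumours were below the floor.

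The genes whose profile over the 9 arrays was nearest to each tested member were found by the root mean square difference of log2 levels, each gene centred on its own mean. The nearest to Sox2 were Ptn, the growth factor pleiotrophin, at 0.72, Aard at 0.73 and Gpr50, a receptor related to the melatonin receptors, at 0.80. The nearest to Sox4 were much closer, with Rfc5, a subunit of the replication clamp loader, at 0.25, Nme7 at 0.27 and Sqle, an enzyme of cholesterol synthesis, at 0.30. These levels were nearly parallel to that of Sox4 over the arrays. For Sox6 they were Adipor1, an adiponectin receptor, at 0.23, and Tmem11 and Map2k3, a kinase upstream of p38, both at 0.27. Sox11 had no near neighbour, the closest being Bex4 at 0.90, Cacna2d2, a calcium channel subunit, at 0.91 and Rcc2 at 1.01. Sox17 was closest to Tigar at 0.19, Itsn1 at 0.31 and Arap3 at 0.33, and Sox18 to Naa20 at 0.14, Yars2 at 0.16 and Phospho2 at 0.17. Sox10 was closest to Tjp3 at 0.18, Khnyn at 0.24 and Chpf at 0.32, and Sox9 to D3Ertd751e at 0.59, Spata9 at 0.61 and Cnnm2 at 0.62. The named neighbours of Sox2 stayed among its 10 nearest genes under the 22 alternatives run for this measure. The measure includes the gap between tumour and muscle, with log2 fold changes of 6.15 for Ptn, 5.99 for Aard and 7.25 for Gpr50. Their staying near therefore lends no support to a link with Sox2. Within the tumours, Ptn was highest in CC23 like Sox2, Aard in CC17-B and Gpr50 in SSM5, and Gpr50 was lowest in CC23. All 3 named neighbours were lost from the 10 nearest for Sox9 without Intercostal, for Sox6 without CC23 and SSM5, and for Sox18 without Intercostal and forelimb.

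**Figure D5:**
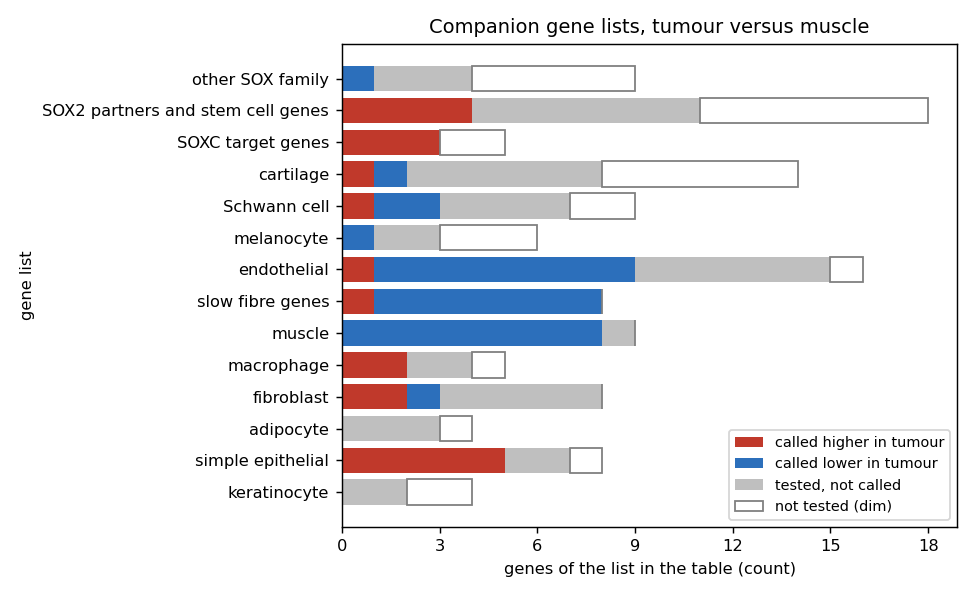
Number of genes of each companion list called higher, called lower, not called or not tested, tumour against muscle. The endothelial and both muscle lists are mostly called lower, and the simple epithelial and SOXC target lists mostly called higher, among the genes tested.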

How the data were processed

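Total RNA of 5 tumours and 4 skeletal muscles was measured on 1 Affymetrix array each. The deposited values are probe set intensities on a linear scale that the authors made with MAS5, per the submitters' processing notes; the version, scaling target and background step are not given in the sources used here. The table held 30508 probe sets. Left out were 7 control probe sets, except Actb for its ratio, 496 with several gene symbols and 4424 with none; the 25581 others covered 14440 genes, and 0 columns of values went unused. All 29 SOX probe sets matched a RefSeq gene by gene ID and symbol.

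Because trimmed means differed by more than 10%, arrays were scaled to a common 2% trimmed mean (factors 0.909 to 1.29). Levels were log2(scaled intensity + 16), so fold changes of dim genes are understated. The comparison used limma 3.58.1 under R 4.3.3, with lmFit and a two-sided eBayes test that allows an intensity trend, and Benjamini-Hochberg adjustment. The probe set of highest mean level stood for its gene. A bound ("at least") is given where every array of 1 group was below its floor. It sets the mean log2 level of the other group against the mean log2 floor of those arrays, with 16 added to both. The bound is therefore not a ratio of the arithmetic means printed beside it. The procedure was tested on simulated data.

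The members and lists were chosen with earlier results of these data known. Named genes were all members, up to 4 called genes of each list with the largest change, the 3 nearest profiles per tested member, and Ss18, Pou5f1, Nanog, Pecam1, Col2a1, Mitf, Tubb3, Tead2, Myh7 and a gene not reported here; other genes named were chosen after their values were seen. Alternatives were 4 scalings, pseudocounts of 1 and 64, filters on dim features, other choices of probe set and of the fit, the CC17 pair as 1 tumour or without one of them, leaving out each array, and leaving out tumours 1 and 4 or muscles 2 and 3. Precision is limited by the number of arrays. No detection calls were used.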

Additional observations from a re-analysis of the deposited data

Results flagged for a closer look

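Among the SOX probe sets, 58 groups of 4 or 5 arrays were examined for an array far from the rest of its group, and 4 had one. Chance gives about 1 in 20 groups, which is close to 4 of 58. Probe sets of 1 gene share arrays, so these groups are not independent. Sox2 in the muscle forelimb was 28.8, against 3.14 to 3.87 in the other muscles, all below the floor. Sox4 probe set 1455867_at in forelimb was 20.1, against 109 to 132 in the other muscles. Sox5 probe set 1459261_at in the tumour CC23 was 121, against 1.53 to 13.4 in the other tumours, and was below the floor of that array. Sox9 probe set 1451538_at in Intercostal was 369, against 57.6 to 75.1 in the other muscles.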

How the results depend on the processing

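Over 23 alternatives, the calls of Sox2, Sox4, Sox6 and Sox11 kept their direction and their side of the threshold. Between 5 and 7 SOX genes were called, and, over the 21 alternatives that apply to single probe sets, between 13 and 17 SOX probe sets. Leaving out muscles 2 and 3 (Intercostal and forelimb) together lowered the SOX genes called lower to 1 (3 as reported), the SOX probe sets called lower to 3 (5 as reported), the companion list genes called to 32 (49 as reported) and those called lower to 16 (29 as reported); that fit has fewer samples. Centring on ribosomal protein and proteasome genes lowered the number of genes called lower to 1205 (1912 as reported). The signs that turned were all of uncalled values. Sox10 (probe set 1424985_a_at) went to -0.022 with median centring, -0.050 with quantile normalization and, as a gene, -0.067 with the mean of its probe sets, and its range with 1 array left out was -0.0668 to 0.50. Probe set 1451689_a_at of Sox10 went to 0.26 with ribosomal protein and proteasome centring and 0.15 without tumours 1 and 4, with a range of -0.56 to 0.39 with 1 array left out. The median of the other SOX genes went to -0.0165 with median centring, -0.019 with quantile normalization and -0.0051 without tumours 1 and 4, and that of the Schwann cell genes to -0.25 with the floor at the 20th percentile. Apart from the fewer samples, the cause was not tested. No paired analysis was possible because the labels give the groups no shared replicate numbers. Intensities near the floor, as for Sox5 and Sox8, limit what can be compared.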

Other observations

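Further lists held for the same comparison gave these counts. Of 9 simple epithelial genes, 7 were tested and 5 called higher, among them Epcam at 4.45 (adjusted p = 0.000249), Dsp at 4.16 (adjusted p = 0.000112), Krt18 at 2.71 (adjusted p = 0.000158) and Cdh1 at 2.32 (adjusted p = 0.00079) on the log2 scale. Epcam and Dsp were below the floor in every muscle and passed the filter only through the tumours, so they had to differ. The sums were 2735 to 15476 in tumours and 570 to 986 in muscles. CC17-A, which had the highest Sox4 by its brightest probe set and the highest value of 5 Sox11 probe sets, also had the highest epithelial sum. In Sox4 probe sets 1419155_a_at, 1419156_at and 1455867_at the highest tumour was CC23. Of 9 macrophage genes, 4 were tested and 2 called higher, Cd68 at 1.25 (adjusted p = 0.0466) and C1qb at 1.24 (adjusted p = 0.00235), the last not called with probe sets ending in _at only (adjusted p = 0.127). Of 9 fibroblast genes, 8 were tested, with Col1a1 at 2.52 (adjusted p = 0.00313) and Pdgfra at 1.02 (adjusted p = 0.015) called higher and Dcn at -1.05 (adjusted p = 0.031) lower. The call of Cd68 was lost without any one of CC17-B, SSM5, SSM4 and the muscles (at most 1.36), that of Dcn without CC17-B or any one muscle (-1.11 to -0.99), and that of Pdgfra without Hind limb (0.89). Scaling ended calls as well, that of Dcn with quantile normalization (-0.35, adjusted p = 0.482) and with ribosomal protein and proteasome centring (-0.73), that of Cd68 with values as deposited (1.14), median centring (1.07) and quantile normalization (0.95), and that of Pdgfra with values as deposited (adjusted p = 0.0825) and median centring (adjusted p = 0.0883). Of 7 adipocyte genes, 3 were tested, and of 7 keratinocyte genes, 2 were tested, with 0 called in either list by limma and 1 and 0 lower at an unadjusted p under 0.05.

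The neural genes Dcx, Tubb3 and Hes5, picked for their peak in CC17-A, reached 1639, 1350 and 1147 there, against at most 189 in the other tumours and at most 67.3 in the muscles. Pax6, Msi1, Stmn2 and Map2 were also highest in CC17-A. Other neural genes were not, with Pou3f1 at 204 in CC17-A and 1004 in CC17-B, and Nes at 542 in CC17-A and 966 in CC23. Sox21, a B2 group gene, was highest in CC17-A, at 603, against 84.2 to 157 in the other tumours and 35.8 to 154 in the muscles.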
